A study of Mus musculus with 16 samples.

Results

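Ependymal cells were followed here as cell barcodes of single-cell libraries from the cortex of aged mice, and 75 of 24578 barcodes belonged to them. A barcode was taken as ependymal where it had 200 to 7000 detected genes, at least 2 unique molecular identifiers (UMIs, each marking 1 captured transcript) summed over Ccdc153, Tmem212, Dynlrb2, Foxj1 and Rsph1, and at most 1 UMI summed over 9 markers of microglia (P2ry12, Cx3cr1), oligodendrocytes (Mag, Mog), endothelium (Cldn5, Flt1), neurons (Syt1), oligodendrocyte precursors (Pdgfra) and fibroblasts (Col1a2). The levels of these 14 genes chose the cells, so they are given below as a description and nothing is read from a test of them.

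Ependymal cells form the epithelium that lines the brain ventricles. Each carries a tuft of motile cilia whose beat moves cerebrospinal fluid along the ventricle wall. The shaft of a cilium, the axoneme, is built of microtubule doublets around a central pair, with dynein arms as motors, radial spokes and nexin links as regulators, and intraflagellar transport trains that carry its parts. The forkhead factor FOXJ1 and the RFX factors, which bind a palindromic DNA element called the X-box, switch on the genes of motile cilia.

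The study asked how the cortex of THY-Tau22 mice, a model of tau pathology, differs from that of wild-type (WT) littermates in each sex. THY-Tau22 mice express mutant human tau from the neuronal Thy1.2 promoter. The line was kept by mating heterozygous males to C57Bl6/J females, and all mice were aged to 17 months. Fresh cortex was dissociated with an enzymatic kit for adult brain and run through Drop-seq, which pairs each cell with a barcoded bead in a droplet, with 1 library per mouse. The labels named 16 libraries: 4 from WT males, 4 from THY-Tau22 males, 3 from WT females and 5 from THY-Tau22 females. Each table listed 3000 barcodes. Those of WT male 3 and THY-Tau22 male 4 shared 2952 barcodes, against 3 to 12 in the other 119 pairs of tables, so both were left out and 14 libraries remained (3, 3, 3 and 5 in the order above). No ependymal barcode was shared between any pair of the 14. The titles of WT male 1 and THY-Tau22 female 1 carry the same animal number, and their tables shared 5 barcodes. The 14 tables held 1041675 to 2237505 UMIs each, and 1121 to 2526 barcodes per library had 200 to 7000 genes. The 2 libraries titled MB22 rather than MB21 were WT female 3 and THY-Tau22 female 5.

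The promoters of ciliary genes are printed first because many of them hold a sequence element that the rule did not use. The stretches come from RefSeq promoter windows (GRCm38.p6, 250 bases before to 50 after the start of a gene) and are written 5′ to 3′ on the strand of the gene. Capitals mark GTTGCC, which is one arm of an X-box, in the first 4 stretches and TGTTTAC, a core recognised by forkhead factors, in the last. Ccdc153 and Dynlrb2 were used by the rule. Enkur, Fam183b and Ak7 were not. The stretches are examples picked because they hold a match before the gene start. No window was found for Foxj1 and Rsph1, and that of Tmem212 held neither GTTGCC nor TGTTTAC. Rsph4a, Ccdc146, Spag17, Dnah12 and Spef2 were searched as well and gave no match before the gene start. Hydin gave a GTTGCC match that is not printed.
Ccdc153, chr9:44240498-44240557, plus strand, match starting at position -152 from the gene start: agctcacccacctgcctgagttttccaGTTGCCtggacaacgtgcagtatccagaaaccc
Dynlrb2, chr8:116504937-116504996, plus strand, match at position -51: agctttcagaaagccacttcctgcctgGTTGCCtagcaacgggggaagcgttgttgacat
Enkur, chr2:21205367-21205426, minus strand, match at position -34: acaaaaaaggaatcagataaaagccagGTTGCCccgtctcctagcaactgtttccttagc
Fam183b, chr11:58801995-58802054, minus strand, match at position -67: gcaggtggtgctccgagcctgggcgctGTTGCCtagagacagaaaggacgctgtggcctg
Ak7, chr12:105705825-105705884, plus strand, match at position -131: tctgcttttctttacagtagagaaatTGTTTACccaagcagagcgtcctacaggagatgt

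Searched on both strands, GTTGCC lay in the promoter window of 40 of 91 genes (44.0%) from 3 lists of axoneme genes and of 14 of 32 genes (43.8%) from a list of intraflagellar transport genes, against 3821 of all 27025 windows (14.1%). Among the genes called higher in ependymal than in astrocyte barcodes, as described below, 123 of 379 windows (32.5%) held it, and 90 of 304 (29.6%) once the cilium lists were set aside. Among those called lower the share was 384 of 2805 (13.7%). The full palindromic X-box was searched only in a fixed form, with set letters and a set distance between its arms. This form, which can overlap the arm counted above, was rarer. It lay in 4 of 91 axoneme windows (4.40%) and in 8 of 379 windows of the genes called higher (2.11%). Among all windows the share was 0.529%. Full X-boxes with other letters or another distance were not counted, so how common full X-boxes are in these windows was not tested. The 2 forkhead cores went opposite ways: TGTTTAC lay in 6 of 91 axoneme windows (6.59%) against 4.05% of all windows, and TGTTTGT in 3 of 91 (3.30%) against 7.60%. Either core lay in 9 of 91 axoneme windows (9.89%), 46 of 379 windows of the genes called higher (12.1%) and 11.2% of all windows. These are letter matches within 300 bases and were not tested.

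**Figure D1:**
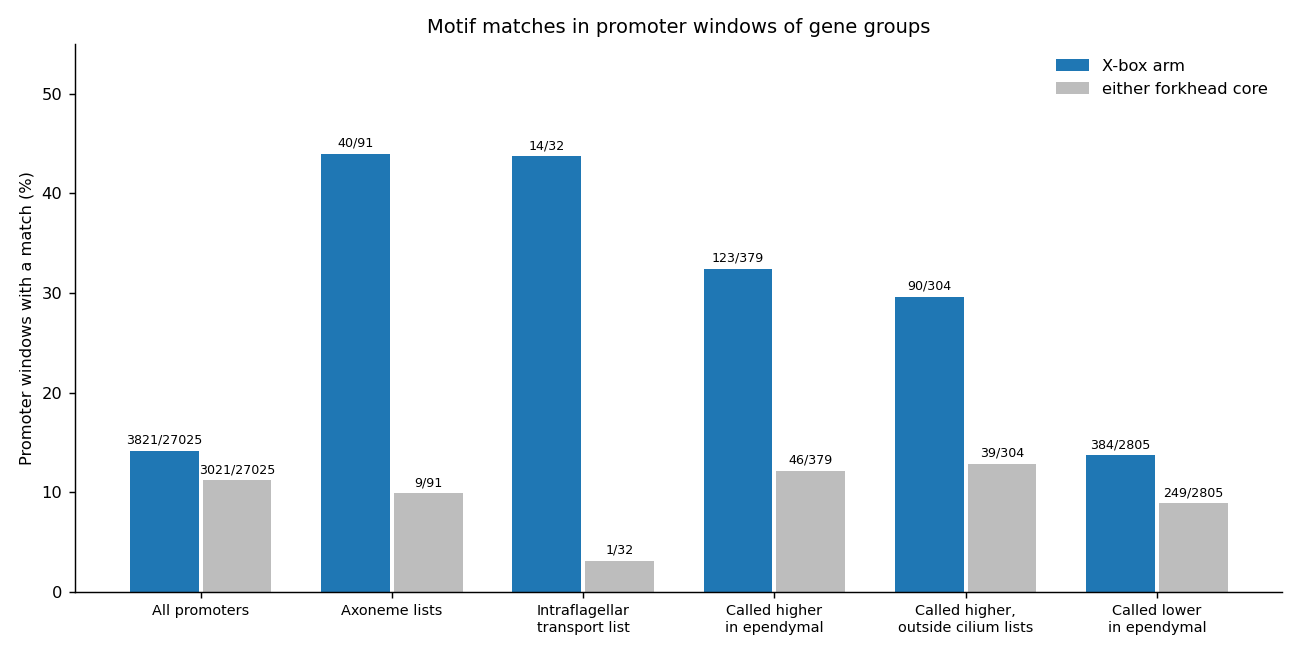
Share of promoter windows (y axis, percent) that hold an X-box arm (blue) or either forkhead core (grey), for all genes, 2 kinds of cilium list and the genes called higher or lower in ependymal barcodes; numbers above the bars give matches and windows. X-box arms lay in 44.0% of axoneme windows and 14.1% of all windows, while forkhead cores lay in 9.89% and 11.2%.

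The ependymal barcodes were few and unequal in depth. They held 107848 UMIs in all, with a lowest of 265, a median of 892 and a highest of 11796 UMIs per barcode, and 201, 514 and 3420 detected genes. Astrocyte barcodes, taken as the cells most like them, numbered 4778 with a median of 559 UMIs. They had at least 2 UMIs summed over Slc1a2, Slc7a10, Ntsr2, Gjb6 and Cldn10, none of the 5 ependymal markers and at most 1 UMI of the 9 excluded ones. Scrublet, a doublet caller, marked 6 of the 75 ependymal barcodes.

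Of the genes used by the rule, Ccdc153, a coiled-coil protein gene on chromosome 9 (44240676 to 44247306, plus strand, GRCm38), was the most abundant. It was detected in 60 of 75 cells at 2355 CPM (the UMIs of a gene scaled to 1000000 UMIs summed over the barcodes of a class). In the 2 WT male libraries with ependymal cells it stood at 2223 and 1451 CPM, in the 3 THY-Tau22 males at 1111, 1728 and 2255, in the 3 WT females at 3438, 871 and 1142, and in the 5 THY-Tau22 females at 2308, 3523, 2198, 3621 and 2278. All 13 libraries with an ependymal cell thus held Ccdc153, and the 4 groups overlapped. Rsph1, a radial spoke head protein gene, followed at 1280 CPM (47 cells), then Tmem212 at 974 (41 cells), the dynein light chain gene Dynlrb2 at 491 (27 cells) and Foxj1 at 427 (29 cells). None of the 5 had a UMI in the astrocyte or microglia barcodes, by the choice of both classes. After thinning to 500 UMIs, Ccdc153 was found in 34 of 58 ependymal cells (58.6%, 80.0% before thinning). The 0 of 3543 thinned microglia barcodes was fixed by that choice. All 6115 microglia barcodes had a median depth of 550 UMIs.

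Genes outside the rule gave the check of the label. The 3 axoneme lists hold 112 genes, of which 102 had a UMI in an ependymal cell, and together they made up 2.53% to 4.51% of the UMIs of the ependymal cells in each of the 13 libraries. In the astrocyte barcodes of the 14 libraries they made up 0.0714% to 0.141%, so that the classes did not overlap. Without 4 genes that many other cells use as well (Dynlrb1, Tuba1a, Tubb4b and Cfap36) the ranges were 2.45% to 4.29% and 0.0304% to 0.0597%, and values per barcode below use these 108 genes. Per cell the axoneme share had a lowest of 0.180%, a median of 3.16% and a highest of 6.04%, and each of the 75 cells had at least 2 axoneme UMIs. By this measure the summed cells of each library went with their label. Single cells did not all do so, and 1 cell led by choroid plexus genes is described below.

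**Figure D2:**
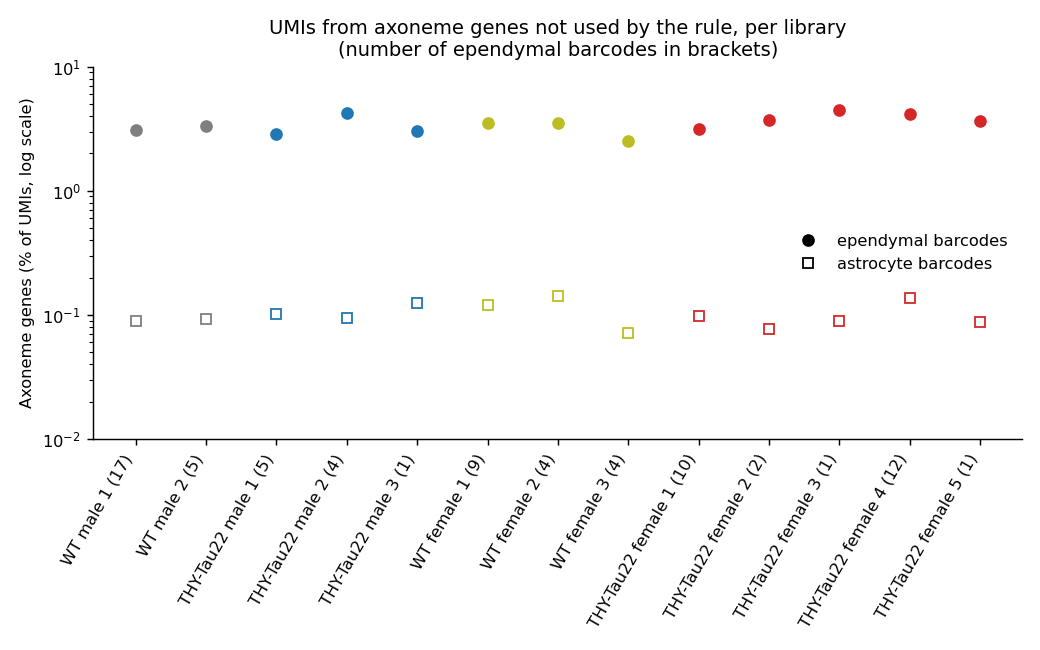
Share of UMIs from the 112 genes of the axoneme lists (y axis, percent, log scale) in the summed ependymal (filled circles) and astrocyte (open squares) barcodes of the 13 libraries with an ependymal cell, coloured by group, with the number of ependymal cells in brackets. Ependymal sums lie between 2.53% and 4.51%, while those of astrocytes lie at or below 0.141%.

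Near the threshold the share was lower. The 15 cells with exactly 2 marker UMIs had 1.94% of their UMIs from axoneme genes, the 14 with 3 had 2.82%, the 12 with 4 had 3.49%, the 5 with 5 had 2.76% and the 29 with 6 or more had 3.31%. Just outside, the 51 barcodes with 1 marker UMI had 0.672%, and 52.9% of them had an axoneme UMI. Barcodes with no marker UMI, 10106 in number under the same limits on other genes, had 0.0453%. On the other side of the rule, the 9 cells with 1 UMI of an excluded gene had 3.09%, and the 8 barcodes left out for 2 such UMIs had 3.25%, with a median of 1769 UMIs. The 14 barcodes left out for 2 or more, those 8 included, had 2.01%, and Scrublet marked 5 of the 14.

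To ask which genes outside the rule differed between ependymal cells and astrocytes of the same mice, UMIs were summed per library and class over the 9 libraries with at least 3 ependymal cells (70 cells, 2977 astrocyte barcodes), and tested with edgeR's quasi-likelihood test with the library as a block. Calls needed an adjusted p (Benjamini-Hochberg) under 0.05 and a 2-fold difference, and the genes that chose either class were left out. Of 1004 genes that passed the filter on low counts, 127 were called higher in ependymal cells (12.6%) and 300 lower (29.9%). Of the 127, 24 were axoneme genes, 2 were intraflagellar transport genes, and 75 were higher in all 9 libraries. Of the 300, 175 were lower in all 9. Both counts describe genes called on these same 9 libraries and are no further evidence. The split depended on scaling: the median log2 fold change of all genes was -0.39 with TMM factors, -1.05 with RLE factors and -1.06 with DESeq2. With RLE, 591 genes were called (58.9%), 77 higher (7.67%) and 514 lower (51.2%), with DESeq2 76 and 516, so that calls in the higher direction were 29.7% of all calls with TMM, 13.0% with RLE and 12.8% with DESeq2. All 127 genes called higher kept a log2 fold change above 0 with RLE, and all 300 called lower were also called lower with RLE. Fewer genes passed the filter with stricter cells: those with at least 500 genes gave 70 calls among 124 genes tested (56.5%), those thinned to 500 UMIs 110 among 218 (50.5%) and those with no UMI of an excluded gene 252 among 602 (41.9%), against 427 (42.5%). Fold changes below use TMM and the filter unless stated.

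Because a gene that is high in one class can pass a filter through that class alone, lists were counted in a fit without the filter. There, 4346 of 20097 genes were called (21.6%), 527 higher (2.62%) and 3819 lower (19%), with a median log2 fold change of -1.15. Fold changes of this fit lay lower as a whole than those with the filter. Mitochondrial mRNAs, at a median of 12408 CPM over the 9 libraries against 12202 in astrocyte barcodes, had a median of -1.54 (8 tested). With the filter it was -0.25 (6 tested). Calls of lower genes and signs near 0 in the unfiltered fit thus depend on its scaling. Of the 106 axoneme genes tested, 81 were called higher and 1 lower, with a median of 4.62. Log2 differences of single axoneme genes and of Wdr66 come from this fit.

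Dynein arm genes encode the motors of the cilium and the factors that assemble and dock them. Of 34 tested, 26 were called higher and 1 lower, with a median log2 fold change of 4.16. Ccdc39 builds the ruler that spaces the inner arms. Ccdc39 stood at 1057 CPM in ependymal cells (436 to 2243 over 9 libraries) and 42.5 CPM in astrocyte barcodes (0 to 74.1). Its log2 difference was 2.89 ± 0.41 (edgeR adjusted p = 1.08e-10). A ± on a log2 value is an approximate SE, the absolute log2 fold change over the square root of edgeR's F statistic. The heavy chain gene Dnah12 had 76 UMIs in 32 ependymal cells and 1 UMI in all astrocyte barcodes, which is 705 against 0.317 CPM, a ratio with a counting interval of 387 to 88906. Another heavy chain gene, Dnah5, stood at 575 against 1.90 CPM, and the assembly factor gene Lrrc6 at 278 against 0.634. Armc4, a docking factor gene, Wdr63 and the light chain gene Dnali1 had no UMI in astrocyte barcodes and were at least 234-fold, 263-fold and 244-fold higher against the limit of 0.951 CPM that 3 counts set there. Wdr78 and Ttc25 differed by 352 against 5.07 CPM and 408 against 3.49 CPM. The Dnah7 paralogs share sequence and are uncertain.

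Radial spoke and central pair genes, which pass signals from the central pair to the motors, had the highest median of the 3 lists, 5.00, with 19 of 28 called higher. Rsph4a, a spoke head gene, had 98 UMIs in 42 ependymal cells and none in astrocyte barcodes, so that it was at least 955-fold higher. Its level was 489 to 1495 CPM over the 9 libraries. Spag17, a central pair gene, was at least 702-fold higher, at 668 CPM. Ak7, an adenylate kinase of motile cilia, stood at 1317 CPM against 0.634 (a ratio with a counting interval of 564 to 17307) and at 998 to 1988 CPM over 9 libraries, a narrow range. Spef2, another central pair gene, was detected in 47 cells at 1233 CPM against 10.5 (log2 difference 4.82 ± 0.44, edgeR adjusted p = 7.74e-25). Hydin, the giant central pair gene, reached 427 against 1.27 CPM.

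Genes of the doublet lumen, the nexin links and the wider ciliary set were called higher in 36 of 44 cases, with a median of 4.77. Ccdc146, a microtubule-associated gene on chromosome 5 (21292961 to 21424677, minus strand), was the most abundant axoneme gene outside the rule. It stood at 1355 and 1715 CPM in WT males, at 1555, 2304 and 0 in THY-Tau22 males, at 1345, 2397 and 653 in WT females, and at 1934, 2168, 3297, 3195 and 0 in THY-Tau22 females. Both zeros for Ccdc146 came from libraries with 1 ependymal cell, THY-Tau22 male 3 and THY-Tau22 female 5, and the groups overlapped. Against 1.59 CPM in astrocyte barcodes its log2 difference was 8.00 ± 0.58 (edgeR adjusted p = 1.63e-40). Enkur, whose promoter is printed above, had 142 UMIs in 47 cells and stood at 1317 CPM against 1.27 (a ratio of 1038, interval 397 to 3862). Fam183b, also printed above, stood at 788 against 0.317 CPM (interval of the ratio 434 to 99299). Cfap44 stood at 955 against 2.85 CPM, Mns1 at 918 against 11.7, and Cfap161 was at least 663-fold higher. Wdr66, a gene of the radial spoke base that was in no list, reached 1586 against 3.81 CPM, a log2 difference of 6.50 ± 0.50 (edgeR adjusted p = 1.64e-35). The tubulin genes were less unequal: Tuba1a stood at 788 against 125 CPM and Tubb4b at 464 against 66.3, and both have paralogs with shared sequence.

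Intraflagellar transport genes, which primary cilia use as well, differed less. Of 37 tested, 11 were called higher and 1 lower, with a median of 0.71. Wdr60, a dynein-2 subunit gene, stood at 807 against 75.5 CPM, Ift74 at 593 against 92.6, Ift81 at 538 against 72.0 and Ift88 at 325 against 22.2. Without the filter, Wdr60, Ift81 and Ift88 were called higher and Ift74 was not (log2 fold change 0.86, edgeR adjusted p = 0.104), although it was called with it (2.20 ± 0.31, adjusted p = 2.14e-11).

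Regulators of multiciliation, most of which act while the cells are formed, were sparse. Of 13 tested besides Foxj1, 2 were called higher and 2 lower, with a median of -0.05. Myb had 13 UMIs in 12 ependymal cells and 1 UMI in astrocyte barcodes, and Ccdc78, of the machinery that amplifies centrioles, 6 and 5. Rfx4 (37.1 against 99.9 CPM) and E2f5 (9.27 against 41.5 CPM) were called lower. Rfx3 stood at 74.2 against 42.5 CPM and Rfx2 at 27.8 against 2.22 CPM, neither called. Mcidas and Gmnc, which start the program in precursors, had no UMI in either class, nor had Cdc20b and Foxn4. In the ependymal cells 3 counts would be 27.8 CPM.

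**Figure D3:**
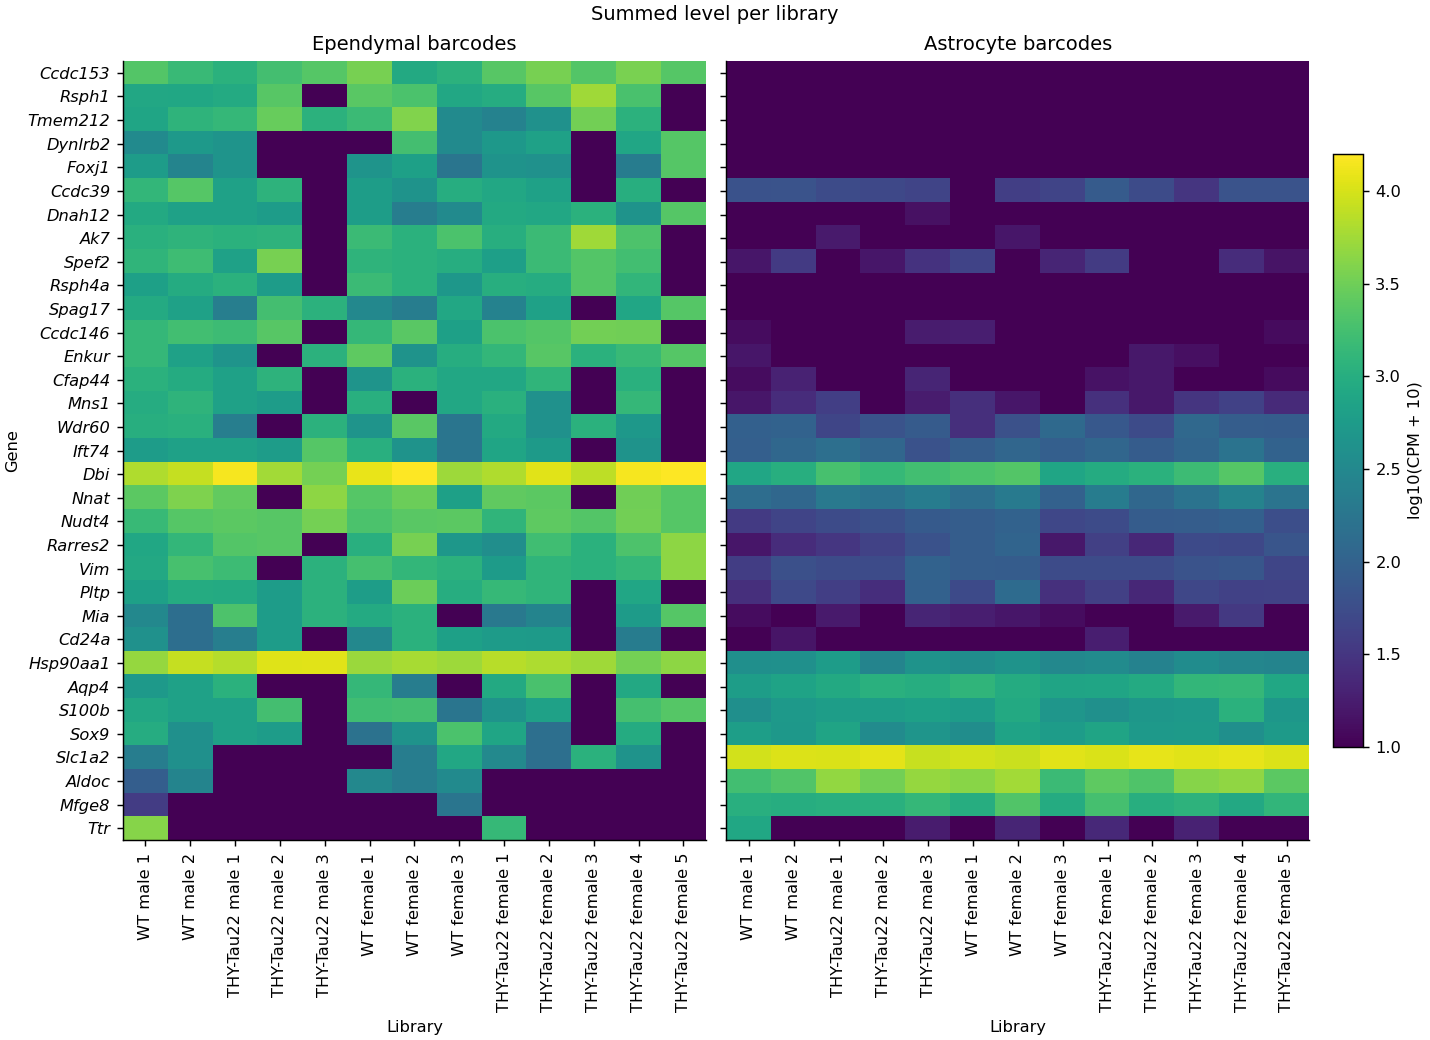
Levels of named genes (rows) in the ependymal (left) and astrocyte (right) barcodes of 13 libraries (columns), as log10 of CPM plus 10 (colour bar). Ciliary genes such as Ccdc146 and Rsph4a are high in the left panel and near 0 in the right one, Slc1a2 the reverse, and single-cell columns such as THY-Tau22 female 5 hold many zeros.

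Beyond the cilium, 20 of 27 other genes known from ependymal cells were called higher and 3 (Mt3, Ramp1 and Sox9) lower without the filter (median 3.51). With the filter, 10 of 15 were called higher and 0 lower. In CPM, Mt3 and Sox9 stood above the astrocyte barcodes, as given below. Dbi, which encodes the acyl-CoA binding protein also called diazepam binding inhibitor, was the only gene of the list found in all 75 cells. Its level was 6506 and 8311 CPM in WT males, 14219, 5760 and 3382 in THY-Tau22 males, 12259, 16558 and 5383 in WT females, and 6550, 11518, 7692, 14269 and 18223 in THY-Tau22 females. The groups overlapped for Dbi, and each of the 9 libraries tested lay above its own astrocyte barcodes (746 to 2277 CPM), with a log2 difference of 2.45 ± 0.20 (edgeR adjusted p = 4.05e-34) and of 1.90 with RLE. After thinning to 500 UMIs, Dbi was found in 89.7% of ependymal, 39.8% of astrocyte and 6.46% of microglia barcodes. Nnat, an imprinted proteolipid gene, stood at 2559 against 153 CPM (3.57 ± 0.24, edgeR adjusted p = 1.11e-46) and was found in 56.9% of thinned ependymal, 6.57% of astrocyte and 0.734% of microglia barcodes. Nudt4, a diphosphoinositol polyphosphate phosphatase gene, stood at 1994 against 53.0 CPM, the chemerin gene Rarres2 at 1187 against 35.8, and the phospholipid transfer protein gene Pltp at 955 against 37.1. Vimentin (Vim), an intermediate filament gene, reached 1094 against 50.7 CPM, and the surface glycoprotein gene Cd24a 417 against 0.951. Hdc, which makes histamine, had 21 UMIs in 13 cells (195 against 6.03 CPM).

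Of the genes that ependymal cells share with astrocytes, Aqp4, S100b, Sox9 and Mt3 were close in level and moved with the scaling. Apoe, Cst3 and Gja1, given below, lay further apart. Aqp4, the water channel gene, stood at 733 against 882 CPM (log2 fold change -0.65 with TMM and -1.27 with RLE). S100b stood at 918 against 546 CPM (0.42 and -0.19), Sox9 at 770 against 550 (0.21 and -0.41) and the metallothionein gene Mt3 at 2689 against 1773 (0.19 and -0.39), so that the sign of these 3 genes turned with the scaling. After thinning, Aqp4 was found in 11 of 58 ependymal barcodes, 31.1% of astrocyte and 1.81% of microglia barcodes.

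The study's own list for its ependymal cluster was chosen on these samples and is no independent evidence. Of its 9 genes tested, 6 were called higher and 1, Mt3, lower without the filter, against 7 higher and 0 lower with it. Hsp90aa1, a chaperone gene, reached 5730 against 343 CPM (3.69 ± 0.21, edgeR adjusted p = 1.01e-66) and its processed pseudogene Gm12346 reached 4979 against 285. These 2 share sequence, and how reads were divided between them is uncertain. Syne1, whose product anchors nuclei, stood at 2745 against 1123 CPM, with a log2 fold change below 0 without the filter (-0.43). Of 20 immediate early and stress genes, 2 were called higher and 1, Hspa8, lower without the filter, against 6 higher of 7 with it. Hsp90ab1 stood at 6611 against 1525 CPM, Jun at 1493 against 511 and Fos at 1178 against 287. In microglia barcodes of the same libraries Jun reached 7904 and Fos 3400 CPM. Without the filter the log2 fold change was 0.16 for Hsp90ab1, -0.10 for Jun and 0.42 for Fos.

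Of 15 immune and interferon genes, Ifitm3 and complement C3 were called higher and H2-K1, B2m and C4b lower without the filter. With the filter 1 of the 15 was tested, and it was called higher. Ifitm3, which restricts virus entry, stood at 399 against 17.4 CPM over a range of 163 to 923 in 9 libraries, and C3 had 13 UMIs in 9 ependymal cells and 1 in astrocyte barcodes. Of 22 genes for lipid and iron handling and antioxidants, 17 were called lower without the filter, against 19% of all genes in that fit. With it, 6 of 13 tested were called lower and 0 higher, against 29.9% and 12.6% of all genes. Their median log2 fold change with the filter was -0.98. Apoe, the main lipid carrier gene of astrocytes, stood at 2346 against 6918 CPM, Clu at 2105 against 3843 and Cst3 at 538 against 7606.

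The genes lower in ependymal cells were led by those of astrocyte functions, which the choice of the astrocyte class favours. Of 19 genes for water, ion and junction functions, 12 were called lower and 1 higher without the filter. With it, 7 of 8 tested were called lower and 0 higher. The glutamate transporter gene Slc1a3 stood at 278 against 3288 (-3.64 ± 0.29), the gap junction gene Gja1 at 343 against 1632 (-2.51 ± 0.29) and the bicarbonate transporter gene Slc4a4 at 148 against 1625 (-3.83 ± 0.36). All 8 further astrocyte markers tested were called lower without the filter, among them Aldoc, a glycolytic enzyme gene, at 92.7 against 3027 CPM. By the naming rule, the largest differences with a call were those of the glutamate receptor gene Gria2, the proteoglycan genes Bcan and Cspg5, Lsamp, Mfge8, Mertk and the tissue factor gene F3. These had 1 to 3 UMIs each in the ependymal cells, and fitted values of such genes hang on the libraries that hold those UMIs: the log2 fold change of Gria2 ran from -9.72 to -6.58 when each library was left out in turn. In counts, Gria2 had 3 UMIs (27.8 against 1099 CPM, a ratio of 0.0253 with a counting interval of 0.00522 to 0.0740), and Bcan had 1 UMI (9.27 against 730 CPM, a ratio of 0.0127 with an interval of 0.000321 to 0.0708). Ptn, a growth factor gene, had 15 UMIs in 12 cells and stood at 139 against 5776 CPM. Malat1, a nuclear long noncoding RNA, took 28893 against 73444 CPM and was lower in all 9 libraries.

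**Figure D4:**
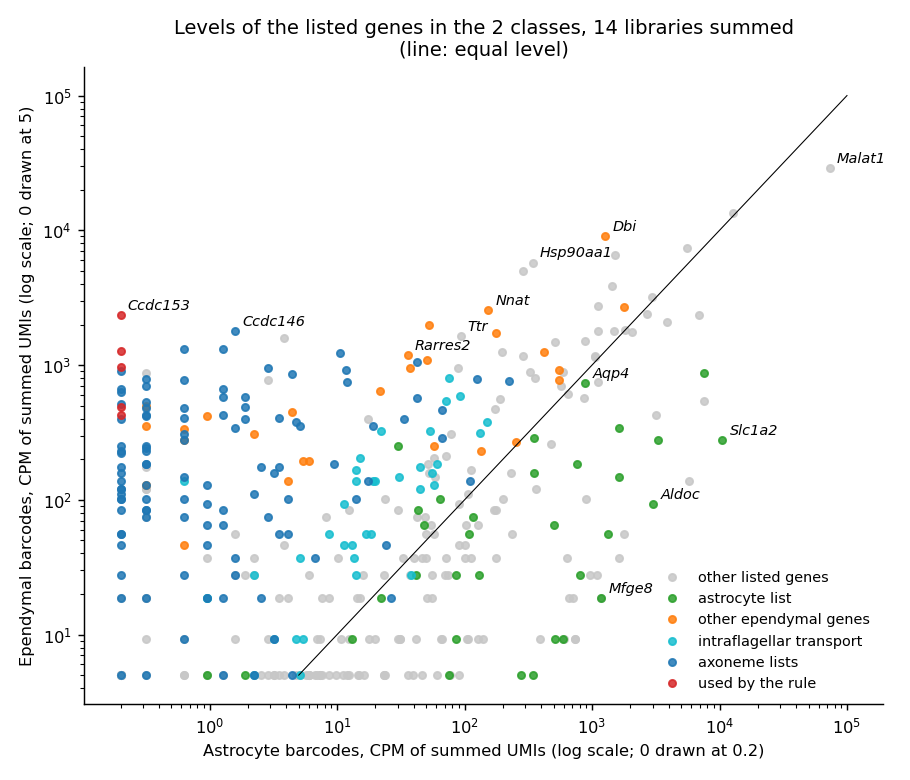
Level of each listed gene in the summed ependymal (y axis) and astrocyte (x axis) barcodes, in CPM on log scales, with zeros drawn at fixed places, coloured by list; the line marks equal levels. Axoneme genes (blue) lie at the upper left, such as Ccdc146 at 1790 against 1.59 CPM, astrocyte genes (green) mostly below the line, such as Aldoc at 92.7 against 3027, and Aqp4 close to it.

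Markers of other cell types gave few UMIs in the ependymal cells, though some lists had a UMI in many of the cells. P2ry12, Tmem119, Mag, Mog, Cldn5, Pecam1, Snap25, Rbfox3, Pdgfra, Cspg4, Col1a1 and Dcn had no UMI, partly because the rule excluded some of them. Lists for microglia (9 genes) summed to 31 UMIs in 23 cells, endothelium (7 genes) to 25 in 16 cells, neurons (7) to 31 in 18 cells, precursors (5) to 1, and mural cells and fibroblasts (8) to 12 in 10 cells. Oligodendrocyte genes (8) summed to 71 UMIs in 36 of the 75 cells, and astrocyte genes (12) to 94 UMIs in 41 cells. All 75 cells together held 107848 UMIs. Tanycytes, the related cells of the third ventricle, were represented by Scn7a (19 UMIs in 14 cells) and Adm (2 UMIs), while Rax, Crym, Col23a1, Gpr50 and Col25a1 were at 0. Of 9 genes of stem cells and neuroblasts, 7 were at 0, Dcx and Mki67 among them.

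Choroid plexus genes marked a single cell. Of 177 UMIs of Ttr, the transthyretin gene of the choroid plexus, 152 lay in 1 cell of WT male 1, which had 1598 UMIs, 2 marker UMIs, 9 axoneme UMIs and 169 UMIs from the 11 choroid plexus genes. The next highest cell had 24. That cell also held Folr1 (2 UMIs), Kl (1), Clic6 (2) and Kcnj13 (2), and Scrublet did not mark it. Ttr stood at 4202 CPM in the ependymal cells of WT male 1, 1372 in those of THY-Tau22 female 1 and 0 in the other 11 libraries. The astrocyte barcodes of WT male 1 held 798 CPM of Ttr, against 13.1 in THY-Tau22 female 1, and the part of free RNA in these counts was not tested.

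The share of ependymal cells differed more between mice than between groups. In WT males it was 0.673% (17 cells), 0.278% (5 cells) and 0% (0 of 1429 barcodes, which allows a share of up to 0.210%). In THY-Tau22 males it was 0.307% (5 cells), 0.203% (4) and 0.0718% (1). WT females had 0.644% (9 cells), 0.357% (4) and 0.169% (4), and THY-Tau22 females 0.510% (10), 0.145% (2), 0.0493% (1), 0.836% (12) and 0.0468% (1). The ranges of the 4 groups overlapped, and exact 95% binomial intervals were wide (0.433% to 1.46% for the highest share). THY-Tau22 males averaged 0.194% ± 0.118 and WT males 0.317% ± 0.338 (SD over 3 and 3 libraries; p = 0.70 by a two-sided exact permutation test, smallest possible 0.10). THY-Tau22 females averaged 0.317% ± 0.347 over 5 libraries and WT females 0.390% ± 0.240 over 3 (exact permutation p = 0.75, smallest possible 0.0179). Over both sexes the difference was -0.0978 percentage points (exact permutation p = 0.507), and the male difference minus the female one was -0.0504 (exact permutation p = 0.875); all 4 had an adjusted p of 0.875. Within the MB21 libraries the female difference was -0.116 (exact permutation p = 0.667), and MB22 holds 1 library of either female group. The male difference turned to 0.0551 without WT male 1 and the female one to 0.0546 without WT female 1.

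**Figure D5:**
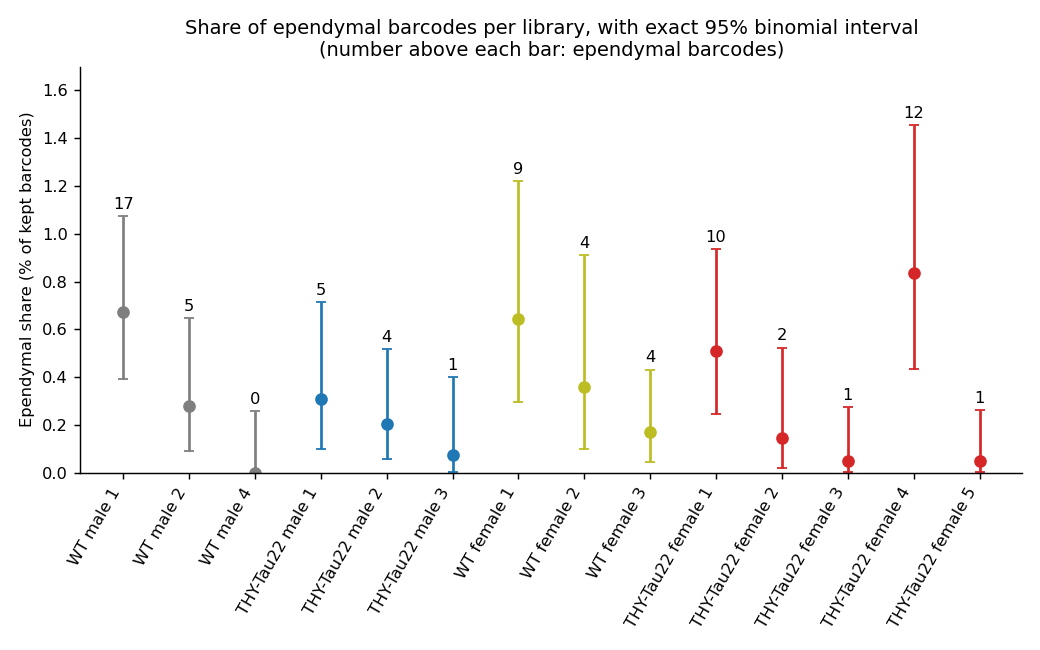
Ependymal cells as a percent of barcodes with 200 to 7000 genes (y axis) in each of 14 libraries (x axis), coloured by group, with exact 95% binomial intervals (bars, counting error only) and the number of cells above. Shares run from 0% to 0.836% and the 4 groups overlap.

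Depth and RNA measures of the ependymal cells were compared between genotypes as well. The median UMIs per cell did not overlap in males, with 919, 398.5 and 887 in THY-Tau22 and 1041 and 1214 in WT mice. They averaged 735 ± 292 over the 3 THY-Tau22 mice and 1128 ± 122 over the 2 WT mice with ependymal cells (exact permutation p = 0.20, smallest possible 0.10). In females, where the ranges overlapped, they averaged 1426 ± 1343 over 5 THY-Tau22 mice and 1053 ± 374 over 3 WT mice (exact permutation p = 0.839). Mitochondrial mRNAs made up 1.93% ± 1.68 of UMIs in THY-Tau22 and 0.783% ± 0.386 in WT mice among males (p = 0.60, exact permutation test), and 1.36% ± 0.915 in THY-Tau22 and 1.40% ± 0.163 in WT females (exact permutation p = 0.982). The mitochondrial ribosomal RNAs, counted apart, took 6.47% to 37.3% of UMIs per library. Some of these library values rest on 1 or 2 cells. THY-Tau22 male 3, with 1 cell, gave the 887 median UMIs, 3.83% mitochondrial mRNA and the 37.3%. THY-Tau22 female 2, with 2 cells, had a median of 3690 UMIs, and THY-Tau22 females 3 and 5 had 1 cell each.

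Within the ependymal cells, no gene was called between THY-Tau22 and WT mice. The fit held 9 libraries, 3 from WT females and 2 from each other group, and 64 genes passed the filter, among them 3 rule markers, 4 axoneme genes and 9 of the other ependymal genes. With calls at an edgeR adjusted p under 0.05 and a log2 fold change of 0.5, the count was 0 (0%) in males, in females, over both sexes, for the male minus female difference and between sexes. At an unadjusted p under 0.05 there were 5, 2, 0, 5 and 0 genes in that order, and with DESeq2 0 calls and 2, 3, 0, 4 and 0 genes. With either tool, 1 of these in females and 1 for the male minus female difference was the rule gene Tmem212, from which nothing is read. The smallest edgeR adjusted p values were 0.4995, 0.988, 0.999, 0.496 and 0.962. The median approximate SE of a log2 fold change, defined above, was 0.76 in males and 0.62 in females. By this SE a 2-fold difference was not detectable in a typical gene at this depth. Single libraries changed these counts. Without WT female 3, the only MB22 library in the fit, Gm42418 was called in females (log2 fold change 2.08, edgeR adjusted p = 0.0453), and Gm42418 and mt-Rnr1 were called for the male minus female difference (-3.72 and -3.62, adjusted p = 0.00126 for each). Without WT male 2, Ttr was called for that difference (edgeR adjusted p = 0.0136), with its UMIs in 2 of the libraries as described above.

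The genes with the smallest p did not pass. In males these were Gm42418, a noncoding RNA that overlaps ribosomal RNA sequence, at 3283 ± 245 CPM in THY-Tau22 and 7860 ± 5331 in WT mice (SD, n = 2 each), the mitochondrial ribosomal RNA gene mt-Rnr1 at 4884 ± 2833 against 14228 ± 8554, and Arhgap5 at 843.5 ± 378 against 2639 ± 933. The 2 WT male and 2 THY-Tau22 male libraries did not overlap for these 3 genes, which were picked for their small p. The share of all tested genes without overlap was not counted, so nothing is read from this. In females Rplp1, a ribosomal protein gene, stood at 734 ± 67.0 CPM in THY-Tau22 (n = 2) and 1673 ± 61.0 in WT mice (n = 3). Over both sexes the leading genes were Eea1 (log2 fold change -1.17), Arhgap5 (-0.86) and Ccdc34 (-1.06). For the male minus female difference they included Gm42418 (-2.39) and Cfap126 (3.38). Cfap126, a ciliary gene, stood at 1485 ± 1158 CPM in THY-Tau22 and 202 ± 98.4 in WT males, and at 520 ± 470 in THY-Tau22 and 1356 ± 1033 in WT females. Between sexes the leading genes were mt-Cytb (0.74, female minus male), Tax1bp1 (-0.78) and Wdr66 (-0.73). Over both sexes the 4 axoneme genes tested had log2 fold changes between -0.28 and 0.35, with 2 above 0. The transgene's own counterpart was nearly absent: mouse Mapt had 1 UMI in the 75 cells and Thy1 none.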

How the data were processed

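Single-cell libraries of cortex were made by Drop-seq, 1 per mouse. The values deposited by the authors are UMI counts per gene and cell barcode, not normalized, from the standard Drop-seq pipeline. The submitters' processing notes name the mm10 genome. The pipeline's version and the annotation are not given in the sources used here. Each table held 3000 barcodes, and how these were chosen is not given either. The study's methods count 16 mice, so libraries of a group were taken as separate mice, apart from the pair that shared barcodes.

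Ependymal and astrocyte barcodes were picked by the UMI limits given with the results. Microglia barcodes had at least 2 UMIs of P2ry12 and Cx3cr1, at most 1 UMI of the other excluded genes and none of the 5 ependymal markers. All had 200 to 7000 detected genes, with no limit on mitochondrial RNA. The members, gene lists and tests were chosen with earlier results of these data known. The axoneme share per barcode was counted without 4 genes of wide use in other cells, a choice made with data at hand. Mitochondrial mRNA was counted without mt-Rnr1 and mt-Rnr2. Scrublet in scanpy 1.11.5 marked 1351 of 24578 barcodes (5.50%), which were kept and removed in an alternative. UMIs were summed per library and class, since cells are not replicates, and CPM was taken from sums.

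Sums were tested in R 4.3.3 with edgeR 4.0.16 (quasi-likelihood test, TMM, filterByExpr, Benjamini-Hochberg adjustment over all genes tested). The genotype fit had 1 mean per group, and libraries needed at least 3 ependymal cells. The self-test ran on simulated data. Library values were compared by two-sided exact permutation tests, with genotype permuted within each sex for the pooled and difference tests. Binomial intervals are exact (Clopper-Pearson, 95%), ratio intervals come from counts, and both, like the 3-count limits, cover counting error only. Python 3.11.15, numpy 2.4.6, pandas 2.3.3, scipy 1.17.1 and matplotlib 3.10.9 were used.

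Alternatives were RLE factors, DESeq2 1.42.0, no filter, other limits for the cells, other sets of libraries, thinning to 500 UMIs and leaving out each library. Named genes were up to 10 called genes per contrast (3 with the smallest p where fewer than 3 were called), 15 per direction against astrocytes, up to 4 per list by level, and the rule genes. Others were named after their values were seen: Dnah5, Armc4, Wdr63, Dnali1, Wdr78, Ttc25, Lrrc6, Hydin, Cfap161, Tubb4b, Cd24a, Hdc and members of short lists. Some genes that the naming rule takes are not reported here. Gene coordinates were taken from the GENCODE annotation of GRCm38, to which 398 of 398 symbols matched. Motifs were searched on both strands of RefSeq promoter windows.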

Additional observations from a re-analysis of the deposited data

Results flagged for a closer look

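Only THY-Tau22 females had the 4 or more libraries needed to test for a library far from the others. The 4 tests covered their ependymal share, median UMIs, mitochondrial mRNA and mitochondrial ribosomal RNA. In these, 2 values stood apart, where chance flags about 1 in 20 tests. Among THY-Tau22 females, mitochondrial mRNAs took 2.96% of the UMIs of the only ependymal cell of THY-Tau22 female 5, against 0.769% to 1.29% in the other 4. In the same group, mitochondrial ribosomal RNAs took 9.02% in THY-Tau22 female 4 (12 cells), against 20.9% to 23.4% in the others.

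Outside the rule, 38 barcodes of the 14 libraries had at least 10 axoneme UMIs (of the 108 genes). Of these, 12 had no marker UMI, with 0.223% of their UMIs from axoneme genes, 16 had 1 marker UMI, with 1.08%, and 10 had at least 2 marker UMIs beside UMIs of excluded genes, with 2.41%. Axoneme genes made up at least 1% in 24 of the 38, and Scrublet marked 10.

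The library deposited under 2 labels also held ependymal cells: 3 in WT male 3 and 3 in THY-Tau22 male 4. They carried the same 3 barcodes.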

How the results depend on the processing

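No paired analysis was possible because replicate numbers follow the order of accessions and pair no mice. The 427 genes called against astrocyte barcodes became 252 with no UMI of an excluded gene, 70 with at least 500 genes and 110 with thinning to 500 UMIs, where fewer genes were tested (602, 124 and 218 against 1004), and 4346 with no filter on low counts; RLE gave 591, DESeq2 592, and leaving out each library 334 to 459. The genotype count of 0 became 1 in males and 1 for the male minus female difference with no filter (Ttr in both). Without the libraries titled MB22 it became 1 in females and 2 for the difference, where Gm42418 was at -3.72. Leaving out each library gave 0 in males, 0 to 1 in females, 0 over both sexes, 0 to 2 for the difference and 0 between sexes. These calls came without WT female 3 (Gm42418 in females, Gm42418 and mt-Rnr1 for the difference) and without WT male 2 (Ttr for the difference).

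The difference in median UMIs over both sexes, -9.83, turned to 141 with no UMI of an excluded gene, 24.1 with at most 5% mitochondrial mRNA, 242 with at least 500 genes, 63.9 with all 16 libraries, 27.1 with the library found under 2 labels kept as WT, 26.9 with it kept as THY-Tau22 and 217 without MB22. The female difference in mitochondrial mRNA, -0.0361 percentage points, turned to 0.329 with at least 3 marker UMIs, 0.482 with no UMI of an excluded gene, 0.396 with at most 5% mitochondrial mRNA and 0.0541 with at least 500 genes. The sex difference of mt-Cytb, 0.74, turned to -0.40 with at least 500 genes and to -0.16 with thinning. No exact permutation p among these passed 0.05.

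Leaving out each library moved the difference in the ependymal share from -0.281 to 0.0551 in males, -0.202 to 0.0546 in females, -0.177 to -0.00876 over both sexes and -0.209 to 0.128 for the male minus female difference. Median UMIs moved from -485 to -225 in males, -193 to 620 in females, -293 to 113 over both sexes and -1012 to -200 for the difference. Mitochondrial mRNA moved from 0.201 to 1.80 in males, -0.435 to 0.113 in females, 0.0824 to 0.882 over both sexes and 0.237 to 1.84 for the difference. The cause of these changes was not tested.

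Alternatives added after seeing the data left the genotype counts at 0: leaving out WT male 1 and THY-Tau22 female 1, additive terms for sex and genotype, and thinning. With 1 to 17 cells per library, depth limits all values within ependymal cells.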
